A study of Mus musculus with 8 samples.

Results

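The fibroblast growth factor (FGF) and epidermal growth factor (EGF) pathways were examined through 43 genes that span the route from growth factor to nucleus: 9 ligands, 8 receptors, 4 adaptors, 7 RAS proteins and kinases, 10 feedback inhibitors, 3 ETS transcription factors and 2 RAS GTPase-activating proteins (GAPs). The genes were taken by name, by a rule that uses none of their values but was set with earlier results of these data known, out of 18193 genes that the arrays represent with a probe set of a single gene symbol. Of these 43 genes, 38 had such a probe set and 32 gave an intensity over 100 (6.64 on the log2 scale) on at least 1 of the 8 arrays. Total RNA came from neural stem cells (NSCs) derived in culture from murine embryonic stem (ES) cells, in 2 groups of 4 biological replicates on Affymetrix GeneChip arrays of the mouse genome. The irr NSCs had received 10 Gy of X-rays at 2 Gy per min and were collected at day 7, without passaging in between. The non-irr NSCs were not irradiated, and the labels give no day for them. Both groups grew in a medium that contained 20 ng/ml of EGF and 20 ng/ml of FGF2, so that the pathway was supplied with its ligands from outside in every culture. The labels name no genotype. The cultures are expanded cell lines from ES cells and stand for NSCs without the tissue that surrounds them in the brain.

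In these pathways a secreted ligand binds a receptor tyrosine kinase, the adaptors dock to the activated receptor and load RAS with GTP, and RAS starts a cascade of kinases, RAF, MEK and ERK, that ends in the nucleus with ETS and other transcription factors. ERK activity switches on its own brakes, among them the Sprouty and Spred proteins and the dual-specificity phosphatases (DUSPs), so that transcripts of these inhibitors are widely used as a readout of the pathway. EGF and FGF2 are the mitogens on which NSC cultures depend for self-renewal, and FGFR3 is a receptor of radial glia and astrocytes.

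Most members were higher in irr NSCs. By the brightest probe set of each of the 32 genes past the intensity filter, 24 rose, 6 fell and 2 were not called at an adjusted p of 0.05 (limma, Benjamini-Hochberg over all probe sets kept). Among all 11364 genes tested, 40.2% were higher and 37.1% were lower. The median log2 fold change of the 32 members was 0.45, against 0.0065 over all genes. At a change of at least 2-fold, 6 members were higher (Fgf1, Dusp4, Ksr1, Dusp1, Rasa1 and Fgfr2) and 2 were lower (Fgf13 and Fgfr3), where 8.88% of all genes rose and 6.16% fell by this much. The values of the 4 irr arrays did not overlap with those of the 4 non-irr arrays for any of the 24 genes that rose or the 6 that fell, as was so for 38.4% of all genes tested on the higher side and 35.0% on the lower. Replicates lay close together: over the 32 genes the SD of the irr arrays ranged between 0.02 (Dusp6) and 0.23 (Hbegf) on the log2 scale, and that of the non-irr arrays between 0.03 (Dusp6) and 0.18 (Braf). RNA was taken from whole cultures, so a change in the share of cells of a type and a change in RNA per cell cannot be told apart.

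**Figure D1:**
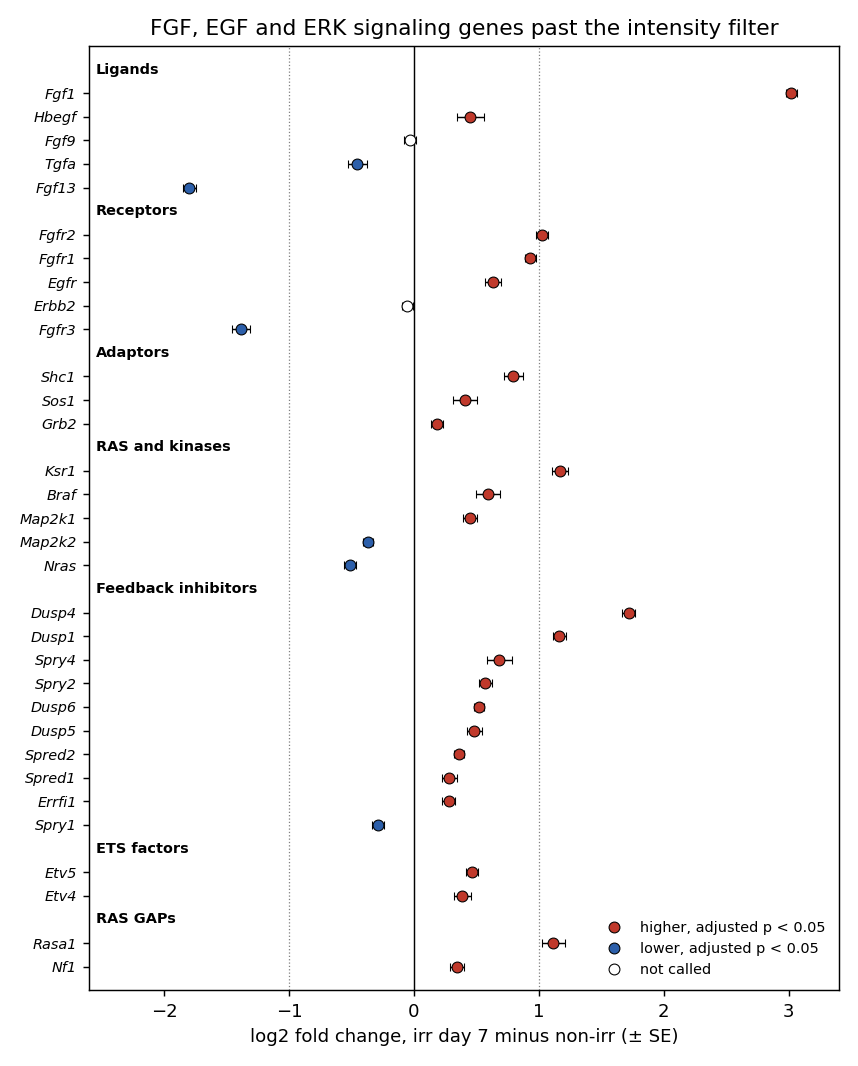
Log2 fold change of the 32 members past the intensity filter, irr minus non-irr NSCs, grouped by role. Points are the estimates of limma from 4 arrays in each group, bars their standard errors, dotted lines a 2-fold change, red points genes that rose, blue points genes that fell and white points those not called. Feedback inhibitors lie to the right of 0 with the exception of Spry1, and Fgf1 at 3.02 and Fgf13 at -1.80 are the ends of the range.

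The ligands had the widest spread, with 2 that rose, 2 that fell and 1 not called among the 5 past the filter. That is 40% each way, near the 40.2% higher and 37.1% lower among all genes tested. Fgf1, a secreted FGF that can bind all FGF receptors, had log2 values of 13.32, 13.29, 13.22 and 13.33 on the irr arrays, against 10.30, 10.28, 10.26 and 10.23 on the non-irr arrays. All 4 irr arrays lay far above all 4 non-irr arrays, an 8.13-fold difference (log2 fold change 3.02, SE 0.04, adjusted p = 1.2e-10, limma). Its 2 other probe sets were also higher, by 1.60 and 2.97. Fgf13 moved the other way, with 7.32, 7.21, 7.31 and 7.24 on the irr arrays, against 9.19, 9.03, 9.01 and 9.04 on the non-irr arrays. Fgf13 encodes an intracellular FGF homologous factor that is not secreted and does not act through the FGF receptors, so it belongs to the family by sequence rather than to the route of signaling. The groups were well separated and Fgf13 was 3.48-fold lower (log2 fold change -1.80, SE 0.05, adjusted p = 2.6e-09, limma).

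The ligands of the EGF receptor changed less. Hbegf, heparin-binding EGF-like growth factor, averaged 10.04 ± 0.23 in irr and 9.59 ± 0.11 in non-irr NSCs (SD, n = 4 arrays each), and both of its probe sets rose (0.45 and 0.87). Tgfa, transforming growth factor alpha, averaged 6.52 ± 0.13 in irr and 6.97 ± 0.10 in non-irr NSCs and fell by 0.45 in its brightest probe set (adjusted p = 3.4e-04, limma). Its values were near the filter, with 1 of 4 irr arrays and 4 of 4 non-irr arrays over an intensity of 100, and a further probe set rose by 0.55, so no single direction can be given for Tgfa. Fgf9, a glia-activating factor, averaged 6.77 ± 0.02 in irr and 6.80 ± 0.07 in non-irr NSCs and was not called (adjusted p = 0.56, limma, 95% interval of the difference -0.14 to 0.08). The transcripts of the factors that were added to the medium stayed below the filter on all 8 arrays, with Fgf2 at 3.76 to 4.01 in irr and 3.70 to 3.97 in non-irr NSCs, and Egf at 5.05 to 5.28 in irr and 4.93 to 5.21 in non-irr NSCs. Nrg1, a ligand of the ERBB receptors, was also below it, at 5.55 to 5.78 in irr and 4.83 to 5.33 in non-irr NSCs.

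**Figure D2:**
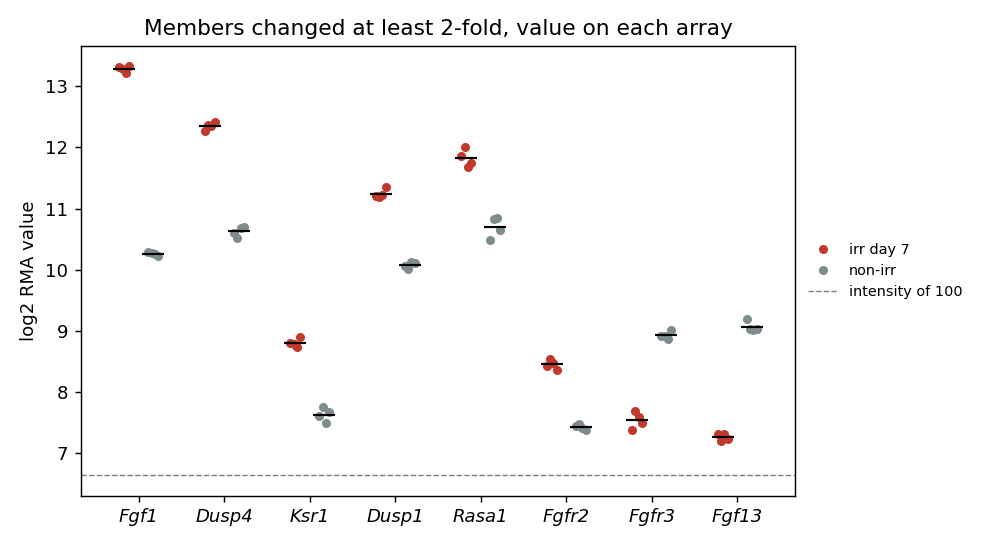
Log2 RMA value on each of 8 arrays for the 8 members that changed at least 2-fold. Each dot is 1 array, red for irr NSCs at day 7 on the left and grey for non-irr NSCs on the right of each gene, with the mean as a line and an intensity of 100 as the dashed line. No gene shows overlap between its groups, and Fgfr3 and Fgf13 are the genes whose irr arrays lie below the non-irr arrays.

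Of the 8 receptor genes, 5 passed the filter, and they divided within the FGF receptor family: Fgfr1 and Fgfr2 rose while Fgfr3 fell. Fgfr1, the broadly expressed FGF receptor, had 11.81, 11.84, 11.86 and 11.84 on the irr arrays, against 10.89, 10.83, 10.92 and 10.98 on the non-irr arrays. The groups were apart by more than their spread (log2 fold change 0.93, SE 0.05, adjusted p = 5.9e-08, limma), and its other probe sets rose by 1.26 and 1.02. Fgfr2, the receptor that also serves ligands of the FGF7 subfamily through a splice form, had 8.43, 8.54, 8.47 and 8.37 on the irr arrays, against 7.45, 7.48, 7.41 and 7.38 on the non-irr arrays. All irr arrays were higher (log2 fold change 1.02, SE 0.05, adjusted p = 5.8e-08, limma), and the second probe set rose by 0.50. The 95% intervals of Fgfr1 (0.83 to 1.04) and Fgfr2 (0.91 to 1.14) both hold the 2-fold mark, so their places on either side of it are not a difference between them.

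Fgfr3 had 7.38, 7.70, 7.59 and 7.50 on the irr arrays, against 8.91, 8.92, 8.87 and 9.02 on the non-irr arrays. Every irr array was below every non-irr array, a 2.62-fold difference (log2 fold change -1.39, SE 0.07, adjusted p = 7.5e-08, limma), and the other probe set fell by 0.57. Fgfr4 stayed below the filter, at 5.94 to 6.10 in irr and 6.16 to 6.30 in non-irr NSCs.

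Egfr, the receptor of EGF, TGFα and HB-EGF, had 11.56, 11.44, 11.31 and 11.41 on the irr arrays, against 10.75, 10.92, 10.75 and 10.78 on the non-irr arrays. It rose by 0.63 (SE 0.06, adjusted p = 9.9e-06, limma) with no overlap of the groups. Of its other 4 probe sets past the filter, a pair rose (0.44 and 0.55), 1 was not called (0.03) and 1 fell (-0.27), so the increase holds for the 3 of 5 that were called higher. Erbb2, the co-receptor of the family that binds no ligand of its own, had 8.43, 8.40, 8.43 and 8.50 on the irr arrays, against 8.47, 8.45, 8.49 and 8.55 on the non-irr arrays. These values overlapped and Erbb2 was not called (log2 fold change -0.05, adjusted p = 0.3, limma, 95% interval -0.15 to 0.05). Erbb3 and Erbb4, the neuregulin receptors, were below the filter, Erbb3 at 4.96 to 5.64 in irr and 5.87 to 6.16 in non-irr NSCs, and Erbb4 at 2.97 to 3.13 in irr and 2.89 to 3.12 in non-irr NSCs. The receptors past the filter are thus those of FGFs and of EGF, together with Erbb2.

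**Figure D3:**
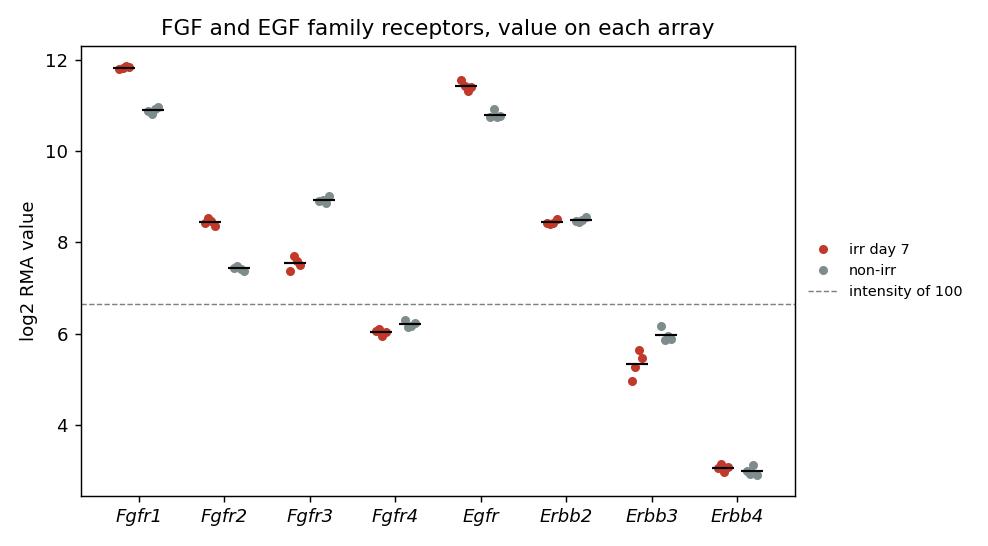
Log2 RMA value on each of 8 arrays for the 8 FGF and EGF family receptors. Each dot is 1 array, red for irr NSCs at day 7 on the left and grey for non-irr NSCs on the right of each gene, with the mean as a line; the dashed line is an intensity of 100, and heights are not comparable between genes. Fgfr1, Fgfr2 and Egfr are higher on all irr arrays, Fgfr3 is lower, Erbb2 overlaps, and Fgfr4, Erbb3 and Erbb4 lie under the dashed line on every array.

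All 3 adaptors past the filter rose, where 40.2% of all genes tested were higher. Shc1, which couples receptors to GRB2, averaged 9.13 ± 0.14 in irr and 8.34 ± 0.07 in non-irr NSCs (SD, n = 4 each), a log2 fold change of 0.80 (adjusted p = 5.4e-06, limma), while its other probe set was not called (0.20). Sos1, the exchange factor that loads RAS with GTP, rose by 0.41 (adjusted p = 3.2e-03, limma) in its brightest probe set and fell by 0.18 in another. Grb2, which links the receptor to SOS, changed least of all 30 called members, by 0.19, in the same way in both of its probe sets.

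Among the RAS proteins and kinases, 3 of 5 rose and 2 fell, where 40.2% of all genes tested were higher and 37.1% lower. Ksr1, the scaffold that holds RAF, MEK and ERK together, had 8.80, 8.78, 8.74 and 8.90 on the irr arrays, against 7.61, 7.76, 7.50 and 7.67 on the non-irr arrays. The irr arrays were all higher, by 2.25-fold (log2 fold change 1.17, SE 0.06, adjusted p = 1.1e-07, limma), and the second probe set rose by 0.17. The genes of the 2 MEK kinases, which phosphorylate ERK, moved in opposite directions, with Map2k1 at 12.24 ± 0.08 in irr and 11.79 ± 0.05 in non-irr NSCs (log2 fold change 0.45) and Map2k2 at 11.00 ± 0.03 in irr and 11.37 ± 0.03 in non-irr NSCs (log2 fold change -0.37). Both passed the test (adjusted p = 3.1e-05 for Map2k1 and 2.0e-05 for Map2k2, limma). Nras, a RAS GTPase, fell in all 3 of its probe sets, by 0.51 in the brightest and by 0.45 and 0.80 in the others. Braf, the RAF kinase most active toward MEK, rose by 0.60 (adjusted p = 3.3e-04, limma) in its brightest probe set, but the other 2 were not called (0.00 and 0.14).

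The feedback inhibitors were the role with the most members measured, with a median log2 fold change of 0.50. In their brightest probe set 9 of 10 rose and 1 fell, where 40.2% of all genes tested were higher and 37.1% lower. Of these 9, Spry4 and Spred2 also had probe sets that fell, 2 in each gene. The 2 of Spred2 lay near the filter, with no irr array over an intensity of 100. Spred2 was at -0.052 and not called where its probe sets were averaged. Dusp4 and Dusp1 had the largest changes of this role. Dusp4, a nuclear phosphatase that inactivates ERK and other MAP kinases, had 12.27, 12.37, 12.35 and 12.42 on the irr arrays, against 10.61, 10.53, 10.68 and 10.71 on the non-irr arrays. All irr arrays stood above all non-irr arrays, by 3.29-fold (log2 fold change 1.72, SE 0.06, adjusted p = 3.8e-09, limma). Dusp1, an immediate early nuclear phosphatase of ERK, JNK and p38, had 11.21, 11.18, 11.22 and 11.36 on the irr arrays, against 10.07, 10.02, 10.13 and 10.12 on the non-irr arrays. It was 2.24-fold higher, again with no overlap (log2 fold change 1.16, SE 0.05, adjusted p = 3.4e-08, limma).

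The phosphatases that act on ERK alone had smaller log2 fold changes than Dusp4 and Dusp1. Dusp6, which removes phosphate from ERK in the cytoplasm, averaged 13.93 ± 0.02 in irr and 13.41 ± 0.03 in non-irr NSCs, a log2 fold change of 0.52 (adjusted p = 1.2e-06, limma). Dusp5, its nuclear counterpart, averaged 9.48 ± 0.10 in irr and 9.00 ± 0.08 in non-irr NSCs, a log2 fold change of 0.48 (adjusted p = 5.8e-05, limma). Each of these 4 phosphatases was measured past the filter by 1 probe set, so their values have no second measurement on the array.

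Since these 4 phosphatase transcripts rose, the 250 bases before the RefSeq transcription start (GRCm38.p6) were read for Dusp1, Dusp5 and Dusp6 to show how their upstream sequences compare. That of Dusp4 was not analysed here. The genes lie on different chromosomes: the Dusp1 stretch is chr17:26508473-26508722 on the minus strand, that of Dusp5 is chr19:53528895-53529144 and that of Dusp6 is chr10:99262981-99263230, both on the plus strand. Each is printed 5′ to 3′ with motif matches in capitals.
Dusp1: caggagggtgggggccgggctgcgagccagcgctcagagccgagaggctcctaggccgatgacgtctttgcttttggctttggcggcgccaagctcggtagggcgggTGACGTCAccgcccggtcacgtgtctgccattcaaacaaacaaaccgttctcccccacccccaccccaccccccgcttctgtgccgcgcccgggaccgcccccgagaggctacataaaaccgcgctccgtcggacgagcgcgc
Dusp5: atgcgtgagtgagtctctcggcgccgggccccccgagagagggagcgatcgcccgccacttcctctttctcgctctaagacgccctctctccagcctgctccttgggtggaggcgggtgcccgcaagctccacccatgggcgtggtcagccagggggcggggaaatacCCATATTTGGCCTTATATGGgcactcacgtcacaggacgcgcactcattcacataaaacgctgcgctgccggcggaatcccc
Dusp6: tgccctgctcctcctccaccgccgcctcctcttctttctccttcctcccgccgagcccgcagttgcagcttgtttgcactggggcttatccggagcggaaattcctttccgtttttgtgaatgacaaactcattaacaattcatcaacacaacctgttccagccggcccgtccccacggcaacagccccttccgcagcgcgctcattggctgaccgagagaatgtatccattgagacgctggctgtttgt

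Motifs of factors downstream of RAS and ERK signaling were searched on both strands: the cyclic AMP response element (CRE, TGACGTCA), the AP-1 site (TGACTCA), the ETS site (CCGGAAGT) and the CArG box of serum response factor. Dusp1 holds a CRE at 143 to 136 bases before the start. Dusp5 holds a pair of CArG boxes side by side, at 82 to 73 and at 72 to 63 bases, which do not overlap each other. Dusp6 holds none of these letters in this stretch. Over all 32851 promoters of the same length in the reference, 1.55% hold the CRE, 1.47% a CArG box, 4.46% the AP-1 site and 2.88% the ETS site. A stretch was available for 34 of the 43 members (45 promoters). In them the CRE was also found before Areg, Errfi1 and Braf (at a pair of places), the AP-1 site before Ksr1 and Shc1, and the ETS site before Egf, Frs2 and Nf1. These are matches of letters, and no binding was measured.

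The Sprouty and Spred genes encode membrane-associated inhibitors of RAS and RAF activation, and they were less uniform. Spry2 averaged 12.48 ± 0.06 in irr and 11.90 ± 0.05 in non-irr NSCs and rose by 0.57 (adjusted p = 2.8e-06, limma), with its second probe set at 0.58. Spry1 was the inhibitor that fell, at 11.40 ± 0.03 in irr and 11.69 ± 0.06 in non-irr NSCs (log2 fold change -0.29, adjusted p = 3.0e-04, limma), and has 1 probe set. Spry4 rose by 0.68 in its brightest probe set and by 0.65 in another, while 2 further probe sets fell, by 0.45 and by 0.30. The transcripts that these 4 probe sets measure cannot be ordered from the array, and the direction of Spry4 depends on which is read.

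Spred1 rose in 6 of 7 probe sets, by 0.25 to 0.99, with 0.28 in the brightest, and the other was not called (-0.02). Spred2 rose by 0.36 in its brightest probe set and by 0.30 in another, and fell by 0.27 and 0.16 in a further pair. The fifth was not called (-0.50, adjusted p = 0.12, limma). The pair that fell and the weaker probe set that rose lay near the filter. Their means were 6.44 to 6.85 in irr and 6.55 to 6.71 in non-irr NSCs. Errfi1, whose product MIG6 binds and inhibits the EGF receptor, rose by 0.28 in its brightest probe set (adjusted p = 6.1e-04, limma) and by 0.20 in the other.

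The ETS factors Etv4 and Etv5, which are classical transcriptional targets of FGF signaling, both rose. Etv5 averaged 13.92 ± 0.03 in irr and 13.45 ± 0.07 in non-irr NSCs (log2 fold change 0.47, adjusted p = 1.1e-05, limma), and its other probe sets rose by 0.29 and 0.57. Etv4 averaged 10.10 ± 0.12 in irr and 9.71 ± 0.08 in non-irr NSCs (log2 fold change 0.39, adjusted p = 4.9e-04, limma).

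Both RAS GAPs, which return RAS to its inactive GDP-bound state, rose as well. Rasa1, p120 RasGAP, had 11.87, 12.002, 11.69 and 11.74 on the irr arrays, against 10.49, 10.83, 10.85 and 10.66 on the non-irr arrays. Its arrays were more scattered than those of the other members that changed 2-fold, but the groups did not overlap (2.17-fold higher, log2 fold change 1.12, SE 0.09, adjusted p = 2.9e-06, limma). A second probe set of Rasa1 rose by 0.90 and the third was not called (0.38, adjusted p = 0.18, limma). Nf1, neurofibromin, averaged 7.64 ± 0.08 in irr and 7.30 ± 0.07 in non-irr NSCs (log2 fold change 0.34, adjusted p = 3.7e-04, limma). The 5 members with no value are Areg, Frs2, Hras and Mapk3, which the annotation used here does not list with a single-symbol probe set, and Etv1, listed only in probe sets with several genes.

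The members were covered by 103 probe sets, 72 of them past the filter, and 38.0% of all 21919 probe sets kept were higher and 37.1% lower. Of the 21 genes with several probe sets past the filter, 12 were called in 1 direction by all of them (among them Fgf1, Fgfr1, Fgfr2, Fgfr3, Nras and Etv5), 4 were called in 1 direction by some and not called by the rest (Shc1, Braf, Spred1 and Rasa1), and 5 were called both ways (Tgfa, Egfr, Sos1, Spry4 and Spred2). Probe sets of a gene can read different transcript ends and splice forms, and which ones these read was not analysed here.

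**Figure D4:**
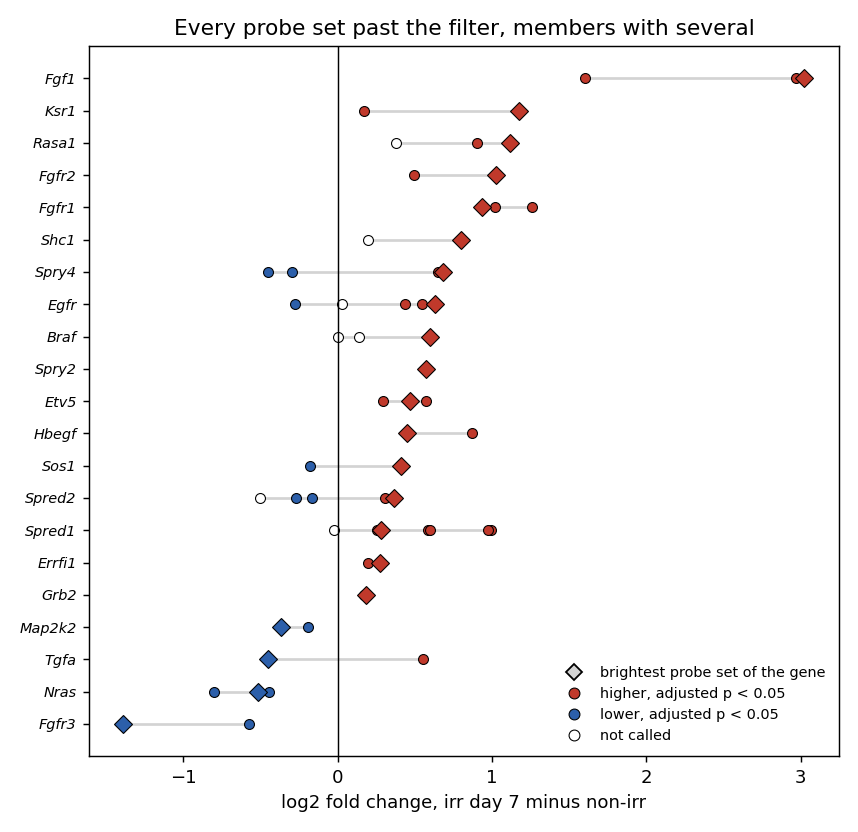
Log2 fold change, irr minus non-irr NSCs, of every probe set past the filter for the 21 members with several. Diamonds mark the brightest probe set, which represents the gene elsewhere, red and blue mark probe sets called higher and lower and white those not called. Fgf1, Fgfr1 and Fgfr2 stay right of 0 and Fgfr3 and Nras left of it in all their probe sets, while Spry4, Egfr, Sos1, Spred2 and Tgfa have probe sets called on both sides.

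Around these 43 genes, 95 further genes of the pathway were read in the same way, of which 89 had a probe set and 63 passed the filter. Of the 63, 40 rose, 11 fell and 12 were not called, and their median was 0.37 on the log2 scale. That is 63.5% higher and 17.5% lower, beside 40.2% and 37.1% of all genes tested. Of the other ligands 4 passed the filter, among them intracellular FGF homologous factors of the kind of Fgf13. Fgf12 was below an intensity of 100 on all 4 non-irr arrays (5.74 to 6.39) and at 8.07 to 8.39 on the irr arrays, so that it was at least 3.05-fold higher, set against that intensity (adjusted p = 2.2e-07, limma), and Fgf11 rose by 1.18. Fgf14, the other member of this kind, was below the filter on all 8 arrays, at 4.42 to 4.75 in irr and 4.62 to 4.82 in non-irr NSCs. Of the 11 receptor modulators, 7 rose and 1 fell, among them Lrig1, a negative regulator of EGFR (1.22), and Il17rd, the FGF antagonist SEF, which fell by 0.23.

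Most of the remaining adaptors and kinases rose, where 40.2% of all genes tested were higher and 37.1% were lower. Of 10 further adaptors, 7 rose and 1 fell, with Gab2, a docking protein for SHP2 and PI3K, at 0.95, and of 13 RAS proteins and kinases 9 rose and the other 4 were not called, with Rps6ka5, the ERK- and p38-activated kinase MSK1, at 1.11. Of 9 further inhibitors, 7 rose and 2 fell. The RAS GAPs Rasa2, Rasa3, Rasal2 and Dab2ip were counted among these inhibitors, unlike the RAS GAPs of the members. Socs3, a suppressor of cytokine receptor signaling, had 8.91 to 9.16 in irr and 7.08 to 7.25 in non-irr NSCs (log2 fold change 1.87), and Dusp3, an ERK and JNK phosphatase, 10.50 to 10.62 in irr and 9.26 to 9.42 in non-irr NSCs (log2 fold change 1.22).

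The transcription factors and targets linked to ERK were split, with 8 that rose, 6 that fell and 2 not called among 16, and a median of 0.15. That is 50% higher and 37.5% lower, beside 40.2% and 37.1% of all genes tested. Fos, an AP-1 subunit, rose by 1.44, with 10.60 to 10.75 in irr and 9.15 to 9.32 in non-irr NSCs, and Epha4, an ephrin receptor, by 1.84, with 8.88 to 9.09 in irr and 6.93 to 7.33 in non-irr NSCs. Other immediate early genes moved both ways. Ier3, a stress-inducible gene, rose by 0.41 (adjusted p = 7.6e-05, limma), and Phlda1 was not called (0.11, adjusted p = 0.096, limma). The largest falls were those of Egr1, a zinc finger factor, at 11.54 to 11.67 in irr and 12.58 to 12.77 in non-irr NSCs (log2 fold change -1.09), and Ier2 at 8.75 to 8.84 in irr and 9.54 to 9.82 in non-irr NSCs (log2 fold change -0.86). Egr2, Myc and Srf fell by 0.61, 0.45 and 0.44. The largest adjusted p among Fos, Epha4 and these 5 genes that fell was 1.4e-04 (Srf, limma).

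**Figure D5:**
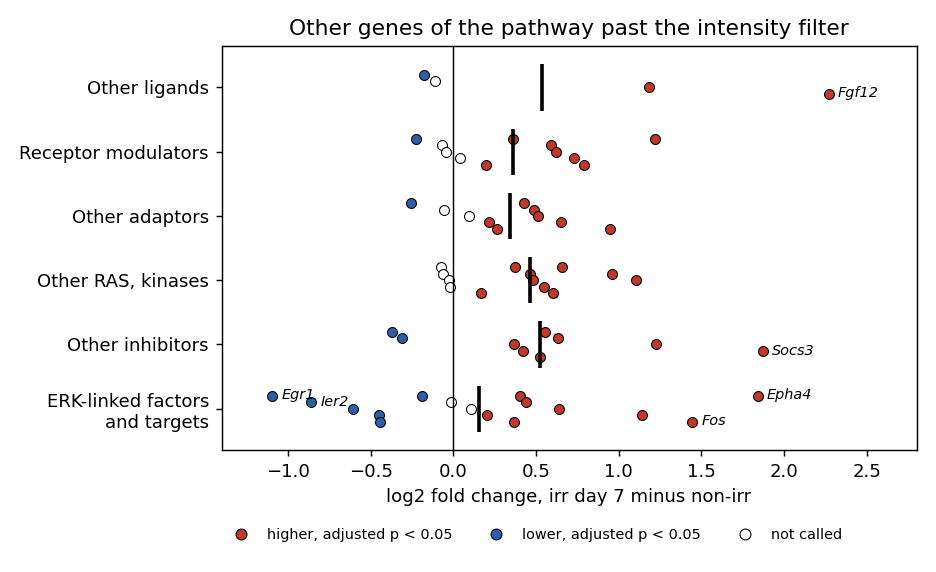
Log2 fold change, irr minus non-irr NSCs, of the 63 further pathway genes past the intensity filter, in 6 groups. Each dot is a gene, coloured red where it rose, blue where it fell and white where it was not called, and black bars are group medians. The ERK-linked factors and targets run between -1.09 (Egr1) and 1.84 (Epha4), with 8 genes that rose and 6 that fell.

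Other measurements moved with the groups. Arrays of the same group correlated at 0.991 to 0.997 over the probe sets kept and arrays of different groups at 0.912 to 0.923, and irr replicates 1 and 2 lay apart from irr replicates 3 and 4 on the second principal component, which held 3.68% of the variance. Among markers of NSCs, 4 of 10 rose and 3 fell, near the 40.2% and 37.1% of all genes tested, and Sox1 was below the filter. Slc1a3 (0.46), Sox2 (0.23), Fabp7 (0.18) and Vim (0.16) rose, and Hes5 (-0.63), Pax6 (-0.54) and Msi1 (-0.17) fell. The level summed over this list, genes below the filter included, was 15.87 to 15.96 in irr and 15.74 to 15.79 in non-irr NSCs (log2). Fabp7 and Vim were its brightest genes. Of 11 astrocyte markers 9 rose and 2 fell (summed 15.51 to 15.63 in irr, 14.43 to 14.56 in non-irr). The largest rises were those of Aqp4 (5.43), Apoe (4.64) and Agt (3.61), and 6 of the 9 were at least 2-fold. Aqp4 was under an intensity of 100 on all 4 non-irr arrays. The 2 that fell were Aldoc (-0.73) and Gfap (-0.18, adjusted p = 0.019, limma). Gfap overlapped between the groups, with 1 of 4 irr and 3 of 4 non-irr arrays over an intensity of 100. Of 6 mesenchymal markers 5 rose and 1 fell (summed 12.53 to 12.64 in irr, 11.26 to 11.35 in non-irr), with Col1a1, Col1a2 and Pdgfrb below the filter. Of 3 microglial markers 2 rose (9.44 to 9.63 in irr, 8.80 to 8.92 in non-irr), with Aif1, Cx3cr1, Itgam, Ptprc and Tyrobp below it, and of 3 pluripotency markers 1 rose, Klf4, 2.82-fold (summed 9.80 to 9.90 in irr, 9.07 to 9.17 in non-irr), with Pou5f1, Nanog, Zfp42 and Tdgf1 below it. Of 7 neuronal markers 2 rose, Gad1 (4.23) and Syt1 (1.04), and 4 fell, the most Nefl, by 1.72. Gad1 and Syt1 were under an intensity of 100 on all 4 non-irr arrays. Snap25, Nefm, Stmn2 and Slc17a6 were below the filter. The neuronal sum was 13.06 to 13.15 in irr and 12.95 to 13.12 in non-irr NSCs. Its brightest gene was Map2 (mean 12.85 in irr, 12.73 in non-irr NSCs), which was not called. Of 5 oligodendrocyte markers 1 rose (summed 14.70 to 14.77 in irr, 14.64 to 14.75 in non-irr). Kdr, the only endothelial marker past the filter, fell, with a mean of 6.57 in irr and 6.97 in non-irr NSCs. The sum of all 6 endothelial genes was 8.04 to 8.11 in irr and 8.16 to 8.42 in non-irr NSCs. The difference between the 3′ and 5′ control probe sets, a sign of RNA or labelling quality, was larger in irr NSCs for actin (0.51 ± 0.07, against 0.26 ± 0.03 in non-irr NSCs), the transferrin receptor (0.85 ± 0.24, against 0.35 ± 0.21) and pyruvate carboxylase (1.06 ± 0.07, against 0.52 ± 0.11), each with a two-sided exact permutation p = 0.0286, the smallest that 4 against 4 arrays allow (0.0381 adjusted over the 4 controls). That of Gapdh was -0.06 ± 0.03 in irr and -0.08 ± 0.04 in non-irr NSCs (exact permutation p = 0.714). The part of these marker levels and of RNA quality in the changes of the pathway genes was not tested.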

How the data were processed

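RNA of 4 irr and 4 non-irr NSC cultures was hybridized to Affymetrix GeneChip arrays of the mouse genome. Intensities were read by the authors in GCOS, and RMA then corrected the background, brought the arrays to 1 distribution and summarized the probes, so that the deposited values are log2. Neither GCOS nor RMA has a version given in the sources used here. Of 45101 probe sets, 64 are controls. Probe sets were named from the platform annotation. Symbols were taken by Entrez number for the 34754 probe sets whose number the gene reference held. The 932 with several symbols and 9211 with none were left out of results by gene. A probe set was kept where any array exceeded an intensity of 100 (21919 were), and detection calls, which the methods also used, were not used here. The probe set that was brightest on average stands for its gene. Irr and non-irr arrays were compared with limma 3.58.1 in R 4.3.3 (moderated statistics, two-sided, no covariates), with p-values adjusted by Benjamini-Hochberg over these probe sets and calls at an adjusted p under 0.05. The procedure was tested on simulated data in which far fewer probe sets changed than were called here.

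Values are given array by array for members that changed at least 2-fold and for receptors past the filter. Named among the further pathway genes are the 5 that rose most and the 5 that fell most among those with separate groups, and Fgf11, Fgf14, Ier3, Phlda1, Lrig1, Il17rd, Gab2 and Rps6ka5, chosen after their values were seen. The members and lists were chosen with earlier results of these data known. Marker levels are log2 of intensities summed over every gene of a list with a probe set, also those below the filter. Upstream sequences are from RefSeq (GRCm38.p6). Alternatives were other intensity filters, centring on the median or on 8 reference genes, a further quantile normalization, other limma settings (trend and robust, array weights, replicate block, a test against a 1.5-fold change), other rules for the probe set of a gene and leaving out each array. Leaving out irr replicates 1 and 2, or 3 and 4, was added after seeing the data. The number of arrays limits the precision. Figures were drawn with matplotlib 3.10.9.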

Additional observations from a re-analysis of the deposited data

Results flagged for a closer look

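In 3 of 96 groups of 4 arrays, over the members and the 10 further pathway genes named by the rule, 1 array stood apart from the other 3 by Dixon's criterion (chance gives about 1 in 20 groups). Fgf9 was at 6.69 on non-irr array 3, against 6.84 on each of the others. Fgf13 was at 9.19 on non-irr array 1, against 9.01 to 9.04 on the others. Spred1 was at 11.71 on non-irr array 2, against 11.51 to 11.53 on the others. All 3 are non-irr arrays, each a different one, and no irr array stood apart in this way for any gene examined. Without any 1 array, Fgf13 stayed lower, Spred1 stayed higher and Fgf9 stayed not called in irr NSCs.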

How the results depend on the processing

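Under the alternatives other than the test against a 1.5-fold change, 661 of 668 values of the 32 members kept their direction and their side of the threshold. The test against a 1.5-fold change called 8 members higher and 2 lower, and 1536 and 1146 of all genes. Centring on reference genes called 7 further pathway genes lower instead of 11 and turned Fgf9 to 0.090 and Erbb2 to 0.069 (neither called). It moved the median of all genes to 0.13. The higher share of all calls went from 52.0% to 63.3%, while that of the members stayed at 80.0%. Of the 8 reference genes themselves, 2 were called higher and 4 lower before centring, with a median log2 fold change of -0.12. Averaging the probe sets of each gene left 1 member lower by at least 2-fold. On the higher side it took Ksr1, Fgfr2 and Rasa1 under a 2-fold change and Fgfr1 over it. It turned Tgfa to 0.050 and Spred2 to -0.052, and left Sos1 at 0.11 and Braf at 0.25, none of these 4 called. Leaving out irr replicates 3 and 4 together left Grb2 at 0.15 (adjusted p = 0.051, limma).

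Leaving out each array in turn called 24 members higher and 6 lower every time, 5 to 6 higher and 2 lower by at least 2-fold (5 without irr replicate 2), 38 to 40 further genes higher and 10 to 11 lower, and 4372 to 4578 of all genes higher and 4001 to 4162 lower. Whether the replicate numbers pair the arrays was not tested. Deviations of same-numbered arrays correlated at 0.04, 0.38, -0.21 and 0.51, and those of different-numbered arrays at -0.48 to 0.38. The replicate block changed no call of a member: 24 higher and 6 lower, 39 and 10 further genes, and 4580 and 4217 of all genes. Signals near an intensity of 100, as for Tgfa, Fgf9 and the probe sets of Egfr and Spred2 that fell, limit what can be said of them.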
